A study of Homo sapiens with 24 samples.

Results

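The Frizzled receptors are the membrane-spanning proteins that bind Wnt ligands at the cell surface. Members were chosen by the RefSeq transcript that each array probe is annotated with. All 10 of the 10 human genes, FZD1 to FZD10, had a probe among the 41258 genes on the array, counted by symbol or transcript. Of these, 9 gave signal well above background and were among the 24648 genes tested, and FZD10 did not.

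The study asked how HepaRG cells, a human liver line labelled as hepatocellular carcinoma, respond to Wnt3a when β-catenin or the Wnt-Frizzled contact is taken away. RNA from 24 cultures was hybridised to one-colour expression arrays, 1 array per culture, in 8 conditions of 3 replicates. The cultures had 4 backgrounds, each with and without mouse recombinant Wnt3a. Untreated cells (NT) were neither transfected nor given another agent. Control siRNA cells (siCTRL) and β-catenin siRNA cells (siCTNNB1) received 80 pmol of siRNA by electroporation. FZD8_CRD cells were not transfected and received the mouse recombinant Wnt-binding domain of Frizzled 8 at 300 ng/ml. Wnt3a was given at 200 ng/ml, and both proteins acted for 72 h in serum-free medium with albumin. Transfected cells were detached and pulsed in suspension, and whether NT and FZD8_CRD cells were detached at that step is not stated, so siRNA, pulse and handling cannot be told apart between siCTRL and NT. Replicate number was also the slide, with 8 arrays on each of 3 slides, and every condition kept its position on all of them, so position and condition cannot be told apart. The number of arrays limits the precision.

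Wnt ligands dock on the cysteine-rich domain of a Frizzled receptor and on the co-receptors LRP5 and LRP6, after which β-catenin escapes degradation and enters the nucleus with TCF/LEF factors. Frizzled receptors also carry signals that do not pass through β-catenin, among them planar cell polarity, and the ubiquitin ligases RNF43 and ZNRF3 remove them from the surface. In liver, Wnt signals shape metabolic zonation, and the same pathway is active in many liver tumours.

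The label was checked against marker genes. All 8 hepatocyte markers (ALB, APOA1, APOB, TTR, SERPINA1, FGB, TF, HNF4A) were well above background in every condition. Their summed signal, in units of each array's 75th percentile, averaged 1143 in NT, 752 in NT with Wnt3a, 398 in siCTRL, 244 in siCTRL with Wnt3a, 574 in siCTNNB1, 395 in siCTNNB1 with Wnt3a, 333 in FZD8_CRD and 389.8 in FZD8_CRD with Wnt3a. ALB was the brightest of them except in siCTRL with Wnt3a, where SERPINA1 was. KRT19, a biliary and progenitor keratin, led a list of 4 (KRT7, KRT19, SOX9, EPCAM) of which 3 were well above background, with sums between 250.1 and 370.3. EPCAM was at background on every array outside NT. Of 6 mesenchymal markers (COL1A1, PDGFRB, DCN, LUM, ACTA2, VIM) 5 or 6 were well above background, DCN the brightest in most conditions, with sums from 22.6 in siCTNNB1 to 95.7 in NT with Wnt3a. Endothelial and leukocyte lists of 4 genes each summed to at most 3.70 and 3.66. The data carry hepatocyte and biliary transcripts, as this line is known for, together with mesenchymal ones. In bulk RNA, fewer cells of a type and less RNA per cell cannot be told apart.

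All members but FZD10 were well above background on 24 of 24 arrays. FZD10 was well above background on 0 of 24, with spot intensities between -4.65 and 3.33, so nothing can be said of its level. On the scale used from here, log2 signal is the log2 of a spot's intensity minus the log2 of the 75th percentile of its array. Intensities ran from 1799 to 4142 for FZD2, from 946 to 3414 for FZD4, from 764 to 1615 for FZD6, from 642 to 1289 for FZD5, and from 641 to 1002 for FZD1. They ran from 178 to 350 for FZD3, from 102 to 299 for FZD7, from 55.2 to 397 for FZD8 and from 30.6 to 93.3 for FZD9. Probes bind with different strength, so these intensities do not rank the receptors against each other. FZD5 was read by 10 spots and each other member by 1.

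The members differed in how far their condition means spread. FZD8 spanned 2.47 log2 units between its highest and lowest condition, a wider span than 97.8% of the genes tested, and FZD4 spanned 1.56, wider than 92.1%. FZD9 spanned 0.92, FZD7 0.81, FZD6 0.68 and FZD2 0.64. FZD3 spanned 0.57, FZD5 0.54 and FZD1 0.37, and the median gene spanned 0.61. FZD8 and FZD4 were highest in NT, and their NT arrays stood above every array of the other conditions. FZD6 was lowest in NT.

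**Figure D1:**
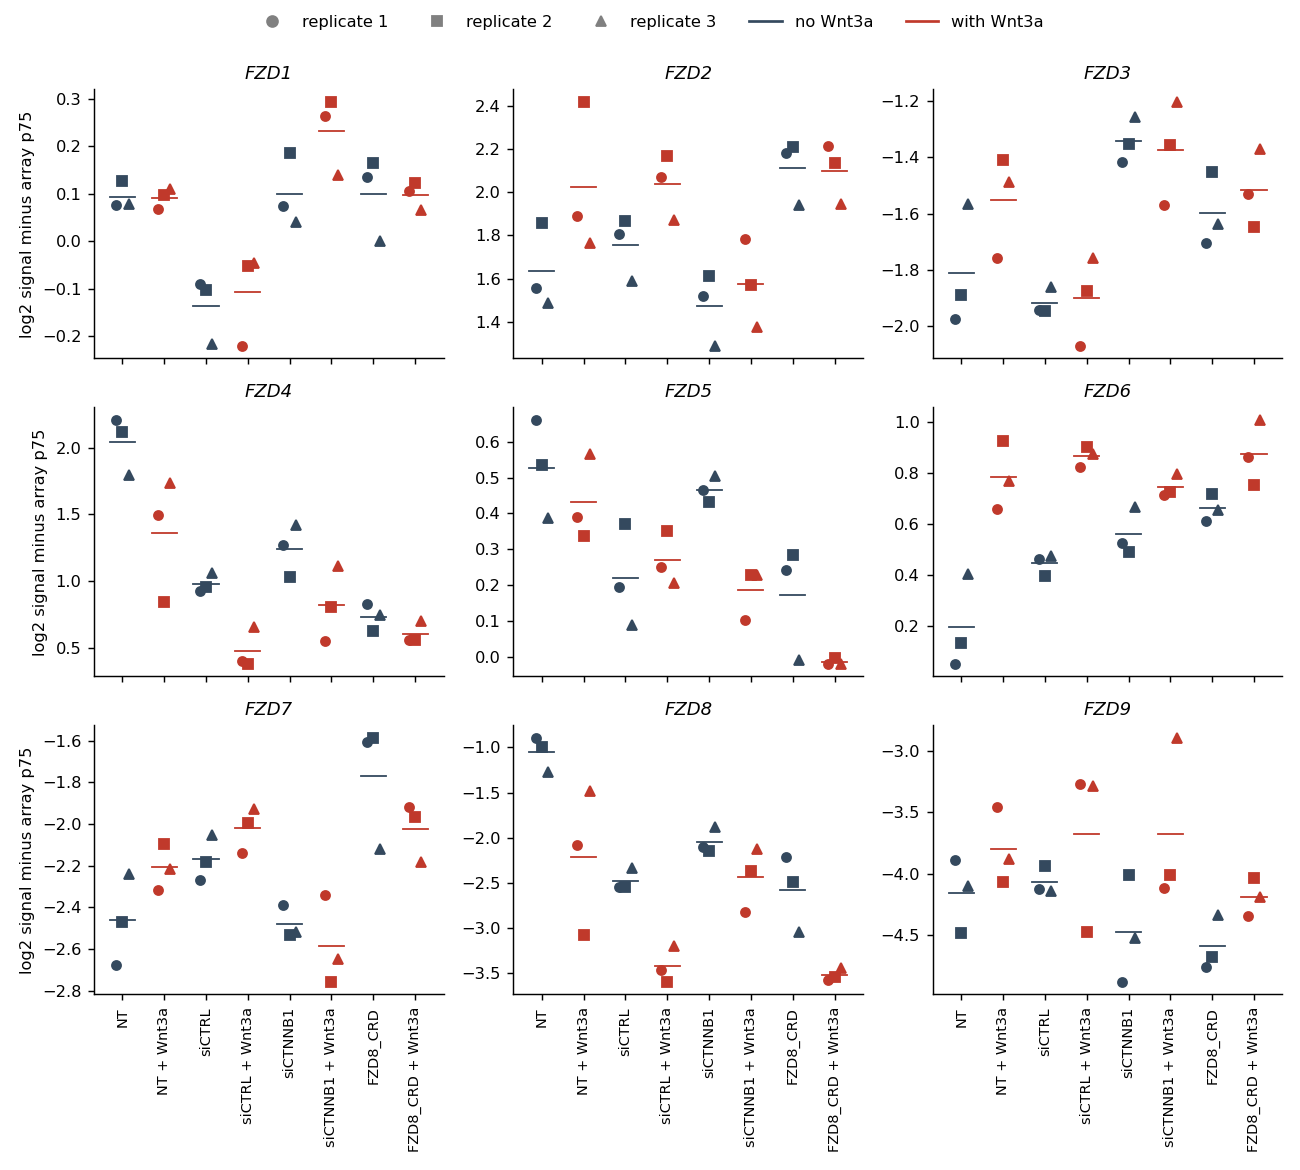
Log2 signal relative to the array's 75th percentile (vertical axis) of the 9 detected Frizzled genes in the 8 conditions (horizontal axis); points are single arrays, the marker shape is the replicate and lines are means of 3. FZD8 and FZD4 are highest in untreated cells, and FZD1 stays between -0.22 and 0.29 on all 24 arrays.

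FZD4 and FZD8 moved together more closely than any other pair of members, with a Pearson r of 0.931 over the 24 arrays, which share slides and conditions. FZD4 is also the receptor for Norrin, a ligand outside the Wnt family, and FZD8 is the receptor whose ectodomain was the added decoy. The promoters of both are shown because these members had the widest spans between conditions. RefSeq promoter sequences (GRCh38.p14, from 250 bases before to 50 after the start) were held for 5 of the 10 members, FZD1, FZD4, FZD5, FZD8 and FZD9, and not for FZD2, FZD3, FZD6, FZD7 and FZD10. The FZD4 window is chr11:86955346-86955645 and the FZD8 window chr10:35642247-35642546, both on the minus strand. Capitals mark a GC box (GGGCGG, or CCGCCC on the other strand), a CCAAT box (CCAAT, or ATTGG on the other strand) and a TATA box (TATAAA, or TTTATA on the other strand).
FZD4: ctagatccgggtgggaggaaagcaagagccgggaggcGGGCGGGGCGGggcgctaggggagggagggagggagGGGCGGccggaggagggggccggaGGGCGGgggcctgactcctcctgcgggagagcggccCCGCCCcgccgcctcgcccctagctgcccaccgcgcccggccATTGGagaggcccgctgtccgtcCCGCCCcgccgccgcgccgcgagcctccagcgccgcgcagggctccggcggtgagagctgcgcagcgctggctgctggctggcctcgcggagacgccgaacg
FZD8: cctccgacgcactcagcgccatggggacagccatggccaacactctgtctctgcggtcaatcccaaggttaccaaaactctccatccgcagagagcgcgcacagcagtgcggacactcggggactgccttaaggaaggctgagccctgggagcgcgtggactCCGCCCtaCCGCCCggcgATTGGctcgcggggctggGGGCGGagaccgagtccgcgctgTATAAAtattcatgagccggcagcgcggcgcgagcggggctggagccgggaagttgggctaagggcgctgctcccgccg
Both windows hold 1 ATTGG at a similar distance, 75 bases before the start in FZD4 and 70 in FZD8. FZD4 holds 6 matches to GGGCGG or CCGCCC, of which those starting 213 and 208 bases before the start overlap, and its GC content of 79.7% is above that of 97.4% of promoters. FZD8 holds 3 such matches at 88, 80 and 52 bases and a TATAAA at 29 bases before the start. TCAAAG, a TCF/LEF core, and its other strand CTTTGA were in 0 of the 5 windows and in 12.9% of 35116 promoters. These 35116 promoters, over which the GC share was also taken, leave out those of 1 chromosome. Among them, CCAAT or ATTGG was in 34.6% (4 of the 5 members) and GGGCGG or CCGCCC in 45% (5 of 5). A TATAAA or TTTATA was in 11.5% (1 of 5). The letters were chosen after the sequences had been seen, and a match describes the window and nothing about a factor.

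Wnt3a was compared with no Wnt3a in each of the 4 backgrounds, which asks whether a ligand changes the transcripts of its own receptors. A gene is called at an adjusted p under 0.05 from limma, over all 24648 genes. Of those, 15997 carried a gene symbol and 8651 did not, and every share of all genes is over both. In NT, 3 of 9 members were called, FZD6 higher and FZD8 and FZD4 lower, against 5.6% of all genes, and 3 of 9 did not overlap between the groups, against 15.3%. In siCTRL 1 of 9 was called, FZD6 higher, against 2.11%, and 4 of 9 did not overlap, against 23.5%. In siCTNNB1 limma called 0 of 9, against 0.0406%, with 3 of 9 members and 2575 of all genes at an unadjusted p under 0.05, and 2 of 9 did not overlap, against 22.2%. In FZD8_CRD 1 of 9 was called, FZD8 lower, against 8.29%, and 2 of 9 did not overlap, against 20.5%. The mean over the 4 backgrounds called 4 of 9 members, against 21.7%, with FZD6 and FZD9 higher and FZD8 and FZD4 lower. The median log2 fold change of the members was 0.25, 0.05, -0.03 and -0.01 in NT, siCTRL, siCTNNB1 and FZD8_CRD, where that of all genes was 0.01, 0.02, 0.03 and 0.02. None of these called directions turned under a scaling alternative. Scaling to spike-in RNA moved the median of all genes by -0.39 in NT, 0.16 in siCTRL, -0.13 in siCTNNB1 and -0.11 in the mean, and with that scaling FZD6 was called in none of the 11 comparisons of levels. All genes called with that scaling were 22 higher and 271 lower in NT (from 738 and 643), 52 and 1 in siCTRL (from 269 and 251), 0 and 0 in siCTNNB1 (from 9 and 1), 155 and 88 in FZD8_CRD (from 1074 and 970) and 355 and 1060 in the mean (from 2646 and 2711).

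**Figure D2:**
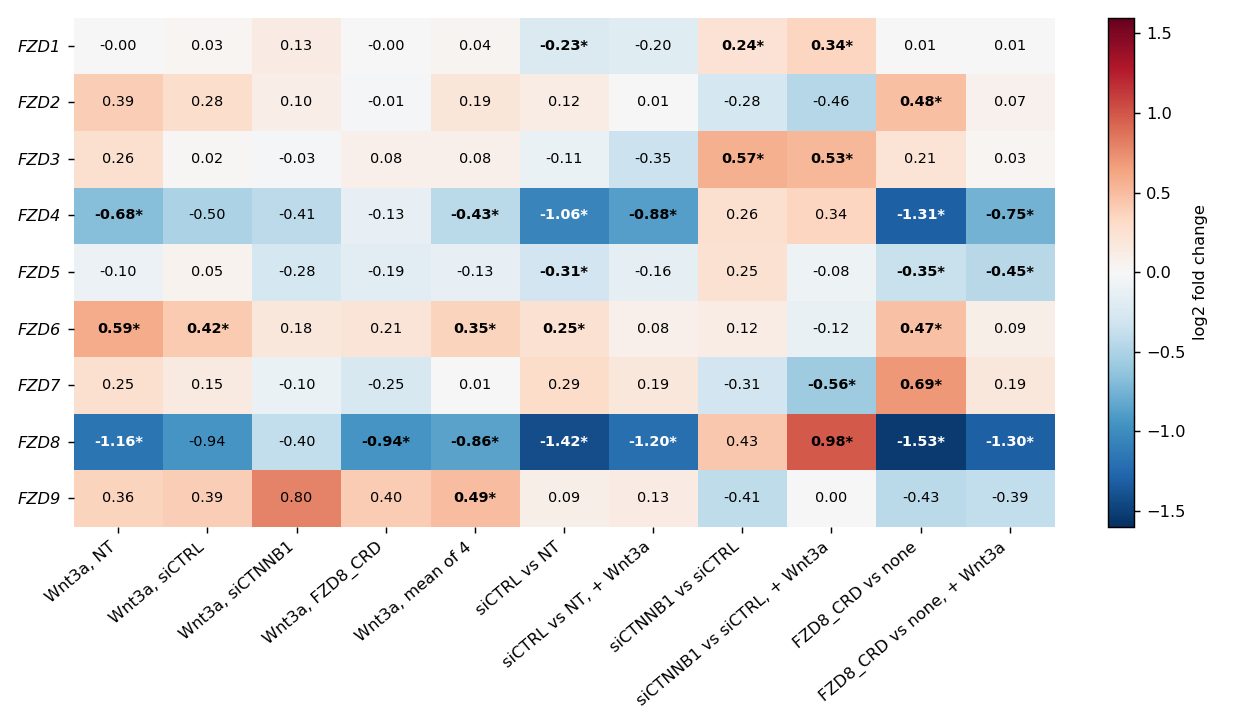
Log2 fold change of the 9 tested Frizzled genes (vertical axis) in 11 comparisons (horizontal axis), coloured by size and direction, with an asterisk at an adjusted p under 0.05. FZD8 and FZD4 carry the largest negative values, down to -1.53 and -1.31 with FZD8_CRD, and of the called directions 1 turns when arrays are scaled to spike-in RNA, FZD6 between siCTRL and NT (-0.03).

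The heat map of fold changes sets the comparisons side by side. The comparisons of Wnt3a in NT, of siCTRL with NT and of FZD8_CRD with NT share the NT arrays, and those of siCTRL with NT and of siCTNNB1 share the siCTRL arrays, so their values are not independent.

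FZD8, a receptor of the subfamily it forms with FZD5, was called lower with Wnt3a in NT, in FZD8_CRD and in the mean over the 4 backgrounds. Its log2 signal was -0.89, -0.99 and -1.27 on the 3 NT arrays (replicates 1 to 3) and -2.09, -3.08 and -1.49 with Wnt3a. In siCTRL it was -2.54, -2.55 and -2.33 without and -3.46, -3.60 and -3.20 with Wnt3a. These groups did not overlap in either background, although NT with Wnt3a replicate 3 came close to the NT arrays. In siCTNNB1 it was -2.10, -2.15 and -1.88 without and -2.83, -2.37 and -2.13 with Wnt3a, and here the groups overlapped. In FZD8_CRD it was -2.22, -2.49 and -3.04 without and -3.58, -3.54 and -3.45 with Wnt3a, with no overlap. FZD8 was lower with Wnt3a on 3 of 3 slides in every background. The fold change was -1.16 (log2, SE 0.28, adjusted p 0.0208) in NT, -0.94 (adjusted p 0.084) in siCTRL, -0.40 (adjusted p 0.705) in siCTNNB1 and -0.94 (adjusted p 0.0423) in FZD8_CRD, and the mean of the 4 was -0.86 (adjusted p 0.000188).
The NT call was lost without NT replicate 1 (-1.08, adjusted p 0.0866), NT replicate 2 (-1.13, 0.0796) or NT with Wnt3a replicate 2 (-0.73, 0.163), and siCTRL gained the call by the study's thresholds, with the 2 conditions fitted alone, and without FZD8_CRD replicate 3 (0.0455) or without NT with Wnt3a replicate 2 (0.0135) or 3 (0.033). The FZD8_CRD call was lost without FZD8_CRD replicate 1 (-0.76, 0.264) or 2 (-0.89, 0.185), without FZD8_CRD with Wnt3a replicate 1 (0.126), 2 (0.117) or 3 (0.0892), and without any of 10 arrays outside the comparison (NT 2, NT with Wnt3a 1, siCTNNB1 1, 2 and 3, siCTNNB1 with Wnt3a 2, siCTRL 1, 2 and 3, siCTRL with Wnt3a 1), with adjusted p between 0.0501 and 0.0534. FZD8 was also not called in NT with no filter on signal or with the 2 conditions fitted alone, nor in FZD8_CRD under those or with normexp (-0.60) or spike-in scaling (-1.03), while the mean kept its call without each of the 24 arrays.

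FZD4 moved with it. Its log2 signal was 2.21, 2.12 and 1.80 in NT and 1.5, 0.84 and 1.74 with Wnt3a, and it was 0.92, 0.96 and 1.06 in siCTRL and 0.41, 0.38 and 0.66 with Wnt3a. Neither pair of groups overlapped, and the NT difference was widest on slide 2 and narrowest on slide 3. In siCTNNB1 it was 1.27, 1.03 and 1.42 without and 0.56, 0.81 and 1.11 with Wnt3a, and in FZD8_CRD it was 0.83, 0.62 and 0.75 without and 0.56, 0.56 and 0.70 with Wnt3a. Both of those pairs overlapped. FZD4 was lower with Wnt3a on 3 of 3 slides in each background. The fold change was -0.68 (log2, SE 0.18, adjusted p 0.0286) in NT, -0.50 (adjusted p 0.155) in siCTRL, -0.41 (adjusted p 0.407) in siCTNNB1 and -0.13 (adjusted p 0.802) in FZD8_CRD, with a mean of -0.43 (adjusted p 0.00125). In NT the call was lost without NT replicate 1 (-0.60, 0.126), NT replicate 2 (-0.64, 0.109) or NT with Wnt3a replicate 2 (-0.42, 0.239). Without that last array, or with the 2 conditions fitted alone, FZD4 was called in siCTRL (adjusted p 0.0401 and 0.0308), and with no filter or with the 2 conditions fitted alone it was not called in NT. The mean held without each of the 24 arrays but not without all of slide 1 (-0.37).

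FZD6, a receptor of planar cell polarity, went the other way. Its log2 signal was 0.05, 0.14 and 0.40 in NT and 0.66, 0.93 and 0.77 with Wnt3a, and it was 0.47, 0.40 and 0.48 in siCTRL and 0.82, 0.90 and 0.87 with Wnt3a. In siCTNNB1 it was 0.53, 0.49 and 0.67 without and 0.71, 0.72 and 0.80 with Wnt3a, and in FZD8_CRD 0.61, 0.72 and 0.66 without and 0.86, 0.75 and 1.01 with Wnt3a. The Wnt3a arrays were above the others in all 4 backgrounds, and the gap was narrow in siCTNNB1 and FZD8_CRD. The fold change was 0.59 (log2, SE 0.089, adjusted p 0.00107) in NT, 0.42 (adjusted p 0.0176) in siCTRL, 0.18 (adjusted p 0.487) in siCTNNB1 and 0.21 (adjusted p 0.165) in FZD8_CRD, with a mean of 0.35 (adjusted p 2.32e-05), on 3 of 3 slides each time. The NT and mean calls held without each of the 24 arrays, but the NT call was lost without all of slide 1 (0.58) or slide 2 (0.49), with the 2 conditions fitted alone and, at 0.20, with spike-in scaling. The siCTRL call was lost without siCTRL replicate 1 (0.43, adjusted p 0.0764), 2 (0.40, 0.0674) or 3 (0.43, 0.0707) or siCTRL with Wnt3a replicate 2 (0.40, 0.0945) or 3 (0.42, 0.0709).

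Of the remaining members only FZD9 was called for Wnt3a, in the mean over the 4 backgrounds, at 0.49 (log2, SE 0.16, adjusted p 0.0358), higher on 3 of 3 slides. Its log2 signal was between -4.89 and -2.89. The call was lost without any of 13 arrays (FZD8_CRD 1 and 2, FZD8_CRD with Wnt3a 2 and 3, NT 2, NT with Wnt3a 1, siCTNNB1 1 and 3, siCTNNB1 with Wnt3a 3, siCTRL 1 and 3, siCTRL with Wnt3a 1 and 3), with log2 values from 0.39 to 0.49 and adjusted p from 0.0525 to 0.0722, and with the deposited values (0.42), no filter (0.49), quantile normalization (0.42), spike-in scaling (0.38) or the study's thresholds. FZD2, a receptor used by Wnt5a among others, was at 1.56, 1.86 and 1.49 in NT and at 1.89, 2.42 and 1.77 with Wnt3a, where the groups overlapped, and it was not called at 0.39 (adjusted p 0.136). With replicate number as a block, the NT comparison called 4 members, FZD2 added, while all genes called went from 1381 to 2823, and the mean called 6, FZD2 and FZD5 added, while all genes called went from 5357 to 7621. Single arrays also decided these: FZD2 was called in NT without NT with Wnt3a replicate 3 (0.52, 0.0395), and in the mean without NT replicate 2 (0.22, 0.0497) or NT with Wnt3a replicate 3 (0.22, 0.0326). FZD5 was called in the mean with the deposited values, the mean of a gene's probes, normexp, the stricter filter or quantile normalization (-0.14 to -0.13), and without FZD8_CRD 3 (-0.15, 0.0115), NT 3 (-0.15, 0.0234), NT with Wnt3a 3 (-0.15, 0.0237), siCTRL 3 (-0.14, 0.0323) or siCTRL with Wnt3a 2 (-0.14, 0.048). Without FZD8_CRD replicate 3, FZD5 (-0.28, 0.0385) and FZD7 (-0.43, 0.0383) were called for Wnt3a in FZD8_CRD.

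**Figure D3:**
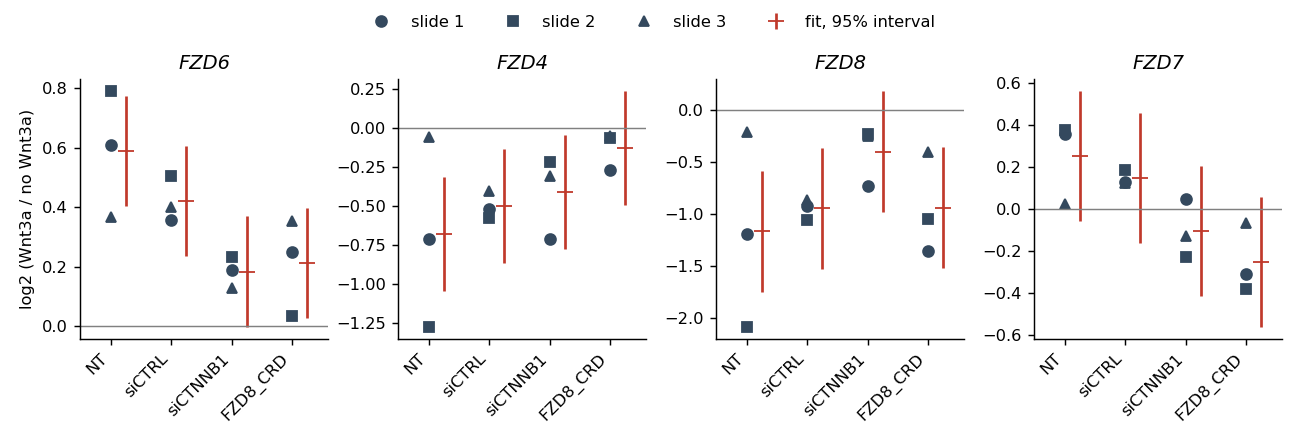
Wnt3a minus no Wnt3a in log2 signal (vertical axis) for FZD6, FZD4, FZD8 and FZD7 in the 4 backgrounds (horizontal axis); points are the 3 slides and bars the limma estimate with its 95% interval. FZD6 lies above 0 and FZD4 and FZD8 below 0 on every slide in every background, while FZD7 lies above 0 on the 3 siCTRL slides and below 0 on the 3 FZD8_CRD slides.

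The plot of within-slide differences shows how uneven the NT response was. FZD8 differed by -1.20, -2.09 and -0.21 on slides 1 to 3 and FZD4 by -0.71, -1.28 and -0.06, whereas in siCTRL FZD8 differed by -0.92, -1.05 and -0.86 and FZD4 by -0.52, -0.58 and -0.40. The same array, NT with Wnt3a replicate 2, also set how many genes were called: 1381 of all genes in NT with every array and 179 without it. That count was 397 without NT 1, 408 without NT 2, 2803 without NT 3, 3189 without NT with Wnt3a 3 and 2283 without FZD8_CRD 3. In siCTRL 520 genes were called, with counts of 93, 257 and 57 without siCTRL 1, 2 or 3, of 318, 85 and 143 without siCTRL with Wnt3a 1, 2 or 3, of 965 without NT with Wnt3a 2 and of 1259 without FZD8_CRD 3. In siCTNNB1 10 were called, 0 without siCTNNB1 1 or without siCTNNB1 with Wnt3a 2, 116 without NT with Wnt3a 2 and 143 without FZD8_CRD 3. In FZD8_CRD 2044 were called, with counts of 348, 366 and 4916 without FZD8_CRD 1, 2 or 3 and of 872, 878 and 1227 without FZD8_CRD with Wnt3a 1, 2 or 3.

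Whether the Wnt3a response differed between backgrounds was tested as such. By limma 0 of 9 members were called for siCTRL minus NT (0% of all genes), 0 of 9 for siCTNNB1 minus siCTRL (0.0162%) and 0 of 9 for FZD8_CRD minus NT (0.073%). At an unadjusted p under 0.05 there were 0, 1 and 3 members and 1183, 822 and 3128 genes. For FZD8_CRD minus NT, FZD6 was at -0.38 (log2, adjusted p 0.2), FZD7 at -0.50 (adjusted p 0.305) and FZD4 at 0.55 (adjusted p 0.357). So no difference in the response of FZD8, FZD4 or FZD6 between backgrounds was shown, although their calls were not the same in each. FZD6 was called at -0.48 (adjusted p 0.0372) without NT replicate 3 and FZD7 at -0.68 (adjusted p 0.0323) without FZD8_CRD replicate 3, an array without which 1911 genes were called in place of 18. With replicate number as a block all genes called were 0, 10 and 149 (0, 4 and 18 otherwise), with the conditions fitted alone 0, 41 and 0, with no filter 8, 6 and 40, and with spike-in scaling 0, 0 and 32, and limma called 0 of the members each time.

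Control siRNA was compared with NT to see what transfection itself came with. FZD4 and FZD8 were far lower in siCTRL, without overlap: FZD4 was between 0.92 and 1.06 against 1.80 to 2.21 in NT, and FZD8 between -2.55 and -2.33 against -1.27 to -0.89 (log2 signal). FZD4 fell by 1.06 (adjusted p 0.00038) and FZD8 by 1.42 (adjusted p 0.00122), each on 3 of 3 slides and without each of the 24 arrays, though not without all of slide 1 (-0.95 and -1.31). FZD5, which is close to FZD8 in sequence, fell by 0.31 (adjusted p 0.0198), and FZD1, which is close to FZD2 and FZD7, fell by 0.23 (adjusted p 0.0229). FZD6 was called higher at 0.25 (adjusted p 0.0499), though with spike-in scaling it was at -0.03. In all, 5 of 9 members were called against 22.3% of all genes, and 4 of 9 did not overlap against 37.4%. The median fold change was -0.11 for the members and -0.03 for all genes, whose median spike-in scaling moved by -0.28, with 122 genes called higher and 1418 lower under it (from 3022 and 2479).
The FZD1 call was lost without NT 1 (-0.24, 0.0541), NT 2 (-0.21, 0.0717) or siCTRL 3 (-0.19, 0.107), and the FZD5 call without NT 1 (-0.24, 0.12), NT 2 (-0.31, 0.0504), siCTRL 1 (-0.30, 0.0638) or siCTRL 3 (-0.24, 0.106). The FZD6 call was lost without any of 18 arrays (all but NT 3, FZD8_CRD 3, FZD8_CRD with Wnt3a 2 and 3, and NT with Wnt3a 1 and 2), with log2 values of 0.18 to 0.27 and adjusted p of 0.0506 to 0.252. With spike-in scaling or with the 2 conditions fitted alone FZD1, FZD5 and FZD6 were not called, and with normexp FZD1 and FZD6 were not. FZD6 was also not called with the deposited values, a floor of 1 intensity unit, no filter or quantile normalization.

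With Wnt3a present, siCTRL again lay below NT for these receptors. FZD4 fell by 0.88 (adjusted p 0.00607) and FZD8 by 1.20 (adjusted p 0.0123), each on 3 of 3 slides. They made 2 of 9 members, against 9.04% of all genes, and 3 of 9 did not overlap (FZD1, FZD4, FZD8), against 20.8%. The members' median was -0.16 and that of all genes -0.02, which spike-in scaling moved by 0.27, with 134 genes called higher and 108 lower under it (from 1342 and 885). With replicate number as a block, 4 members were called, FZD1 (-0.20) and FZD3 (-0.35) added, while all genes called went from 2227 to 3754. The FZD4 call was lost without NT with Wnt3a 1 (-0.81, 0.0553), and the FZD8 call without NT with Wnt3a 1 (-1.14, 0.0802) or 3 (-0.84, 0.0633) or siCTRL with Wnt3a 2 (-1.11, 0.0749). With spike-in scaling (-0.61 and -0.93) or with the 2 conditions fitted alone neither was called.

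β-catenin siRNA was compared with control siRNA, both electroporated, to see which receptor transcripts differ when β-catenin is lowered. The study's methods name different suppliers for the siRNAs, so effects of the reagents and of lower β-catenin cannot be told apart. The target, CTNNB1, was at 3.35, 3.37 and 3.51 in siCTRL and at 0.26, 0.35 and 0.52 in siCTNNB1 (log2 signal). With Wnt3a it was at 3.39, 3.62 and 3.67 against 0.33, 0.52 and 0.77. It fell by 3.03 (adjusted p 1.17e-09) and, with Wnt3a, by 3.02 (adjusted p 7.76e-10), on 3 of 3 slides and in every alternative.

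FZD3, a receptor of planar cell polarity and axon guidance, changed by nearly the same amount on each slide. Its log2 signal was -1.94, -1.95 and -1.86 in siCTRL and -1.42, -1.35 and -1.26 in siCTNNB1. With Wnt3a it was -2.07, -1.88 and -1.76 against -1.57, -1.36 and -1.20. The groups did not overlap either time. FZD3 rose by 0.57 (SE 0.13, adjusted p 0.00628), with slide differences of 0.53, 0.59 and 0.60, and by 0.53 (adjusted p 0.0105) with Wnt3a, with slide differences of 0.50, 0.52 and 0.55. FZD1 was at -0.09, -0.10 and -0.22 in siCTRL and at 0.07, 0.19 and 0.04 in siCTNNB1. By limma FZD1 rose by 0.24 (adjusted p 0.0358) and by 0.34 (adjusted p 0.003) with Wnt3a, on 3 of 3 slides. Its mean was 0.09 in NT, -0.14 in siCTRL and 0.10 in siCTNNB1, so siCTNNB1 lay at the level of untransfected cells. With Wnt3a the FZD1 means were 0.09, -0.11 and 0.23 in the same order. Without Wnt3a, 2 of 9 members were called against 10.6% of all genes, and 6 of 9 did not overlap against 36.2%, with a median of 0.24 for the members and -0.03 for all genes. With replicate number as a block, 3 members were called, FZD2 (-0.28) added, while all genes called went from 2604 to 4095.
With the 2 conditions fitted alone FZD8 was called (0.43). The FZD1 call without Wnt3a was lost with the 2 conditions fitted alone, with normexp (0.21) and without any array of the comparison, siCTNNB1 1 (0.25, 0.074), 2 (0.19, 0.159) or 3 (0.27, 0.0577) or siCTRL 1 (0.26, 0.0683), 2 (0.25, 0.0677) or 3 (0.20, 0.147). With spike-in scaling neither FZD3 (0.66, and 0.32 with Wnt3a) nor FZD1 (0.32, and 0.14 with Wnt3a) was called, and the FZD3 call was lost without all of slide 1 (0.60) or slide 2 (0.57). The FZD3 call with Wnt3a was lost without siCTNNB1 with Wnt3a 3 (0.44, 0.0684) or siCTRL with Wnt3a 1 (0.44, 0.064).

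With Wnt3a present, 4 of 9 members were called against 10.6% of all genes, and 6 of 9 did not overlap against 28.2%, and the median was 0.00 for the members and -0.01 for all genes. FZD7, a receptor known from stem cells of the gut, was at -2.14, -1.99 and -1.93 in siCTRL and at -2.34, -2.76 and -2.65 in siCTNNB1, both with Wnt3a. FZD8 was at -3.46, -3.60 and -3.20 against -2.83, -2.37 and -2.13. Both pairs of groups were apart. FZD7 fell by 0.56 (adjusted p 0.0164) and FZD8 rose by 0.98 (adjusted p 0.0273), on 3 of 3 slides each. Spike-in scaling moved the median of all genes by -0.20, and turned none of the 4 called directions, though none of the 4 was then called (FZD7 -0.77, FZD8 0.78). FZD2 was at -0.46 (adjusted p 0.0594), lower on 3 of 3 slides, and with replicate number as a block 5 members were called, FZD2 added, while all genes called went from 2608 to 3846.
The FZD7 call was lost without siCTNNB1 with Wnt3a 2 (-0.47, 0.0964) or 3 (-0.53, 0.0654) or siCTRL with Wnt3a 2 (-0.55, 0.0558) or 3 (-0.52, 0.068), and the FZD8 call without siCTNNB1 with Wnt3a 2 (0.94, 0.0909) or 3 (0.82, 0.132) or siCTRL with Wnt3a 1 (0.96, 0.0783) or 2 (0.89, 0.106), with no filter or, at 0.60, with normexp. With the 2 conditions fitted alone FZD1, FZD3 and FZD7 were not called. FZD2 was called with the deposited values or quantile normalization and without FZD8_CRD 3 (0.0498), NT with Wnt3a 2 (0.0198) or 3 (0.0434) or siCTNNB1 with Wnt3a 1 (-0.56, 0.0385).

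Mesenchymal markers were also called in these and other comparisons. Of 6 tested, 4 were called lower in siCTNNB1 than in siCTRL (PDGFRB, DCN, LUM, VIM; median -0.83), where 6.16% of all genes were, and 4 with Wnt3a (COL1A1, DCN, LUM, VIM; median -1.15), where 6.5% were. In siCTRL against NT, VIM was higher and DCN lower (median 0.10), where 12.3% of all genes were higher and 10.1% lower, and with Wnt3a DCN was lower (median -0.13; 3.59% of all genes). With spike-in scaling all genes called in siCTNNB1 against siCTRL were 70 higher and 112 lower (from 1085 and 1519) and, with Wnt3a, 40 and 601 (from 1006 and 1602). The summed mesenchymal signal, in units of the 75th percentile, was 43.5 in siCTRL and 22.6 in siCTNNB1, and 61.1 and 25.1 with Wnt3a. DCN was the brightest except in siCTNNB1 without Wnt3a and FZD8_CRD with Wnt3a, where ACTA2 was. PDGFRB was at background on all arrays of NT with Wnt3a, of siCTNNB1 with Wnt3a and of FZD8_CRD without Wnt3a. With Wnt3a in NT, 4 of 6 were called higher (COL1A1, DCN, LUM, ACTA2; median 0.52), where 2.99% of all genes were and where ACTA2 turned to -0.080 with spike-in scaling. In FZD8_CRD 3 of 6 were higher with Wnt3a (COL1A1, ACTA2, VIM; median 0.15; 4.36% of all genes), in siCTRL COL1A1 was (median 0.33; 1.09%), and in the mean over the 4 backgrounds 4 of 6 were (COL1A1, DCN, LUM, ACTA2; median 0.28), where 21.7% of all genes were called in either direction. Summed mesenchymal signal was 58.3 in NT and 95.7 with Wnt3a, and 34.4 in FZD8_CRD and 39.6 with Wnt3a. Of 3 tested biliary and progenitor markers, SOX9 was lower in siCTNNB1 than in siCTRL with Wnt3a (median -0.17) and lower with Wnt3a in the mean (median 0.02). Of 4 endothelial markers PECAM1 was lower in siCTNNB1 than in siCTRL (median -0.06), KDR was lower with Wnt3a in FZD8_CRD (median 0.06), and in the mean PECAM1 was higher and KDR lower (median 0.05). Of 3 tested leukocyte markers CD68 was higher with Wnt3a in FZD8_CRD (median 0.20) and in the mean (median 0.00). Their part in the Frizzled results was not tested.

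FZD8_CRD, which binds Wnt ligands outside the cell, was compared with NT. FZD4 was between 0.62 and 0.83 against 1.80 to 2.21 in NT, and FZD8 between -3.04 and -2.22 against -1.27 to -0.89, with no overlap. FZD7 was at -1.61, -1.59 and -2.12 against -2.68, -2.47 and -2.24 in NT, and FZD2 at 2.18, 2.21 and 1.94 against 1.56, 1.86 and 1.49. Both were higher with the decoy on every array, FZD7 by little on slide 3. FZD4 fell by 1.31 (adjusted p 8.26e-06), FZD8 by 1.53 (adjusted p 0.000198) and FZD5 by 0.35 (adjusted p 0.00403). FZD7 rose by 0.69 (adjusted p 0.00085), FZD2 by 0.48 (adjusted p 0.0157) and FZD6 by 0.47 (adjusted p 0.000298), and these 6 directions were seen on 3 of 3 slides and under every scaling. In all, 6 of 9 members were called where 41.9% of all genes were, and 6 of 9 did not overlap where 45.7% did not. The median was 0.01 for the members and -0.09 for all genes, which spike-in scaling moved by -0.39, and under that scaling FZD6 (0.08), FZD2 (0.09) and FZD7 (0.30) were not called. The FZD2 call was lost without FZD8_CRD 1 (0.44, 0.0505) or 2 (0.43, 0.0606) or NT 1 (0.44, 0.0568) or 3 (0.40, 0.0664), and the other 5 calls held without each of the 24 arrays, though without all of slide 1 FZD5 (-0.32) and FZD7 (0.50), and without slide 2 FZD7 (0.59), were not called. With the 2 conditions fitted alone FZD5 was not called. FZD9 was called with spike-in scaling (-0.83), and FZD3 was called with the deposited values (0.34) and turned to -0.18 with spike-in scaling.

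With Wnt3a present, FZD8_CRD against NT called 3 of 9 members, all lower, where 37.2% of all genes were called, and the same 3 did not overlap where 44% of genes did not. FZD4 fell by 0.75 (adjusted p 0.00209), FZD8 by 1.30 (adjusted p 0.00106) and FZD5 by 0.45 (adjusted p 0.000778), on 3 of 3 slides and without each of the 24 arrays. Without all of slide 1 FZD4 (-0.66) and FZD8 (-1.21) were not called, and with spike-in scaling FZD5 (-0.54) was not. FZD8 differed by -1.49, -0.46 and -1.96 on slides 1 to 3, so slide 2 stood apart in size. The median was 0.01 for the members and -0.08 for all genes.

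Markers of other cell types were called between FZD8_CRD and NT as well. Of 6 mesenchymal markers VIM and ACTA2 were higher, ACTA2 turning to -0.091 with spike-in scaling, and DCN lower (median 0.02). With Wnt3a present VIM and ACTA2 were higher and DCN and LUM lower (median 0.14). Of 3 tested biliary and progenitor markers KRT19 was higher, turning to -0.028 with spike-in scaling, and SOX9 lower (median -0.26), and with Wnt3a present KRT19 was again higher and SOX9 lower (median -0.15). In these comparisons 19.7% and 18.2% of all genes were higher and 22.2% and 18.9% lower, 4851 and 4493 genes higher and 5471 and 4669 lower, which spike-in scaling made 549 and 663 higher and 6823 and 1699 lower. Of 4 endothelial markers KDR, the brightest of them, was lower without and with Wnt3a (medians -0.17 and -0.08). Of 3 tested leukocyte markers CD68, the brightest, was lower without Wnt3a (median -0.57), and with Wnt3a limma called 0, with 1 at an unadjusted p under 0.05 (median -0.24). Endothelial sums were 3.70 in NT and 1.49 in FZD8_CRD, and 2.83 and 0.824 with Wnt3a, and leukocyte sums 3.19 and 1.49, and 3.66 and 2.42 with Wnt3a. Biliary sums were 254 in NT and 323 in FZD8_CRD, and 250.1 and 370.3 with Wnt3a. Their part in the Frizzled results was not tested.

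**Figure D4:**
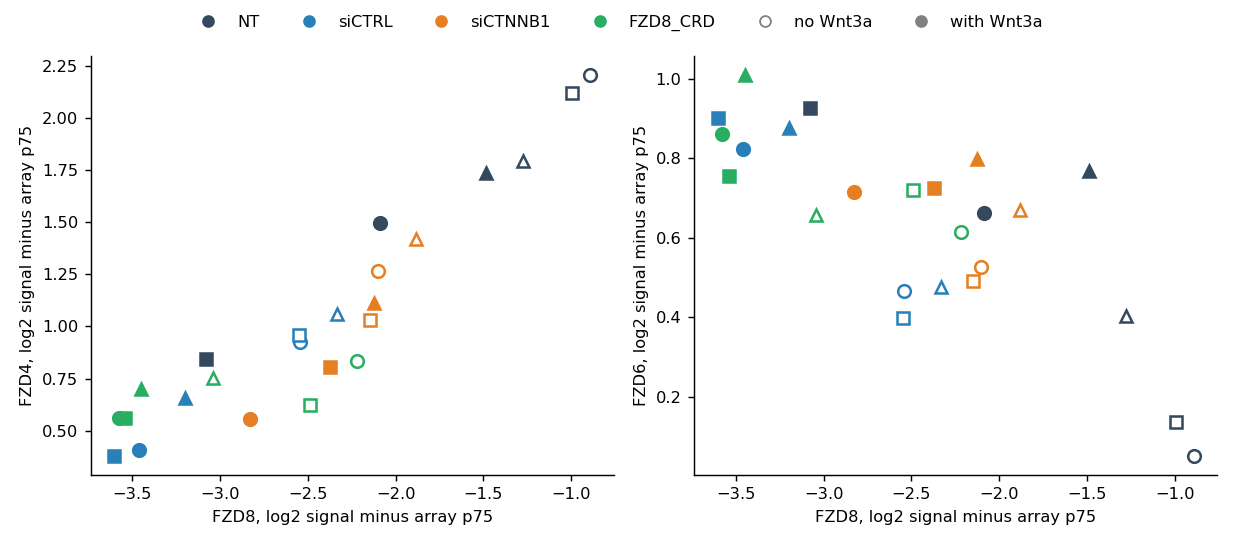
Log2 signal of FZD4 and of FZD6 (vertical axes) against that of FZD8 (horizontal axis) on the 24 arrays, coloured by condition. FZD4 rises with FZD8 (Pearson r 0.931) and FZD6 falls (r -0.772), and the 3 untreated arrays stand at the FZD8 end at -1.27 or above.

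Across the 24 arrays, the scatter of FZD8 against FZD4 and FZD6 shows members on opposite sides. FZD5 also went with FZD8 (r 0.761) and FZD4 (r 0.745), FZD2 went with FZD7 (r 0.748) and FZD1 with FZD3 (r 0.646), and FZD6 ran against FZD8 (r -0.772) and FZD4 (r -0.732). These are descriptions over arrays that share 8 conditions and 3 slides. Among all genes with a symbol, those near FZD4 included GSTA5 (r 0.977) and ORM2 (0.971), and those nearest to FZD8 were FGG (0.972), CLDN1 (0.969) and SLC40A1 (0.968). ORM2 and FGG encode plasma proteins made by hepatocytes. Nearest to FZD6 were TJP1 (0.910), VCAN (0.882) and SLC25A32 (0.878), and nearest to FZD2 were TSPAN5 (0.942), CLDND1 (0.927) and SNHG12 (0.921). FZD7 was nearest to STEAP2 (0.901), LUARIS (0.897) and RAB11A (0.887), and FZD5 to RFTN1 (0.925), PAPLN (0.922) and CX3CL1 (0.916). FZD1 was nearest to TMTC4 (0.894), FZD3 to LHX8 (0.859) and FZD9 to TFAP2E (0.777).

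Hepatocyte markers were called lower in several comparisons where FZD4 and FZD8 were, and not in others. All 8 of 8 were called lower in siCTRL against NT (median -1.77), where 10.1% of all genes were lower, and in FZD8_CRD against NT (median -2.15), where 22.2% were. With Wnt3a present 5 of 8 were lower in both (medians -1.39 and -1.15), where 3.59% and 18.9% of all genes were, and 3 of 8 were lower with Wnt3a in the mean over the 4 backgrounds (median -0.44), where 11% were. In NT alone, where FZD4 and FZD8 were called lower with Wnt3a, limma called 0 of 8 markers, with 2 at an unadjusted p under 0.05 (median -0.90). Neither receptor was called with Wnt3a in siCTRL or siCTNNB1, and there limma also called 0 of 8 (medians -0.62 and -0.64). At an unadjusted p under 0.05 there were 3 and 2 markers. In FZD8_CRD, where FZD8 was called lower with Wnt3a, APOA1 and TTR were called higher and APOB lower (median 0.22). Of all genes 4.36% were higher and 3.94% lower there. In siCTNNB1 against siCTRL with Wnt3a, where FZD8 was called higher, ALB was called higher, as 4.08% of all genes were, and the list's median was 0.58 (0.66 without Wnt3a, where limma called 0 of 8, with 1 at an unadjusted p under 0.05). The summed signal there was 395 against 244 with Wnt3a and 574 against 398 without. The list's summed signal was 1143 in NT, 398 in siCTRL and 333 in FZD8_CRD, with ALB the brightest and none of the 8 at background. Their part in the FZD4 and FZD8 results was not tested.

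The genes that work beside the receptors were followed from lists. Each of the 9 tested Frizzled genes was called in at least 1 of the 14 comparisons, where 61.5% of all genes were. By the study's own rule, a p under 0.01 with a fold above 1.5 or below 0.7, 4 of 9 were (FZD4, FZD6, FZD7 and FZD8), where 34.8% of all genes were. For that rule the p was taken here without adjustment. At the adjusted p, the counts were 5 of 5 for tested co-receptors (LRP5, LRP6, RYK, ROR1, ROR2), 6 of 7 for genes of receptor turnover (RNF43, ZNRF3, LGR4, RSPO1, RSPO2, RSPO3, not LGR6) and 3 of 5 for other proteins with a Frizzled-like domain (SFRP2, FRZB, SMO). They were 3 of 3 for Frizzled partners (TSPAN12, ADGRA2, RECK) and 5 of 8 for transducers (DVL1, DVL2, AXIN1, APC, CSNK1A1). For planar polarity genes they were 5 of 6 (CELSR1, CELSR2, CELSR3, PRICKLE1, PRICKLE2), for Wnt ligands 7 of 9 and for β-catenin target genes 9 of 9. All these counts are out of the genes tested, which were 9 of 19 listed ligands and 9 of 11 listed targets. Among the targets, NOTUM and LGR5 were not tested.

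RNF43, a target gene whose product removes Frizzled from the surface, was at 1.00, 1.08 and 0.80 in siCTRL and at 1.92, 1.92 and 2.12 with Wnt3a, and at 0.33, 0.24 and 0.32 in siCTNNB1 and -0.15, 0.12 and 0.30 with Wnt3a (log2 signal). The Wnt3a arrays were far above the others in siCTRL and not above them in siCTNNB1. RNF43 rose by 1.02 (adjusted p 9.77e-05) with Wnt3a in siCTRL, and was lower in siCTNNB1 than in siCTRL by a log2 value of -0.66 and, with Wnt3a, of -1.89. In FZD8_CRD against NT it was at -1.30 and, with Wnt3a, at -1.23, each of these called and on 3 of 3 slides. ZNRF3, its relative, was called in siCTNNB1 against siCTRL at -0.50 and, with Wnt3a, -0.64. Of the 9 tested targets, 5 were lower in siCTNNB1 than in siCTRL (median -0.50, all genes -0.03, 6.16% of them lower) and 6 with Wnt3a (median -0.71, all genes -0.01, 6.5% lower), among them LEF1 at -0.72 and -1.05 and AXIN2, with Wnt3a, at -0.74. With spike-in scaling ZNRF3, AXIN2 with Wnt3a, and LEF1 and RNF43 without Wnt3a were not called in that comparison. With Wnt3a the same 4 of 9 targets (AXIN2, LEF1, TCF7, RNF43) were called higher in NT (median 0.30; 2.99% of all genes higher), where AXIN2 turned to -0.025 with spike-in scaling, and in siCTRL (median 0.60; 1.09% higher). In siCTNNB1 limma called 0 of 9 with Wnt3a, with 1 at an unadjusted p under 0.05, and in FZD8_CRD 2 were higher (TCF7, RNF43; 4.36% of all genes) and 2 lower (DKK1, APCDD1; 3.94%). In FZD8_CRD against NT 4 were lower (AXIN2, RNF43, DKK1, APCDD1; 22.2% of all genes) and 2 higher (LEF1 and SP5; 19.7%), of which SP5 turned to -0.20 with spike-in scaling. With Wnt3a present the same 4 were lower there (18.9%).

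Of the co-receptors, LRP5 and LRP6, which bind Wnt beside Frizzled, were called lower in FZD8_CRD than in NT, LRP5 at -0.37 and, with Wnt3a, -0.82, and LRP6 at -0.49 and -0.37. RYK, a kinase-like receptor that binds Wnt, was called higher there at 0.41, and with spike-in scaling was at 0.017 and not called. Of the 5 tested co-receptors 2 were higher and 2 lower without Wnt3a (median -0.07, all genes -0.09, 41.9% of them called), and 1 was higher and 3 lower with Wnt3a (median -0.37, all genes -0.08, 37.2% called). The LRP5 call without Wnt3a was lost without NT replicate 2 (adjusted p 0.0518) and the LRP6 call with Wnt3a without NT with Wnt3a replicate 1 (adjusted p 0.0577).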

How the data were processed

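Total RNA was measured on 24 one-colour arrays of 62976 spots. The scanner files were deposited with spot intensity, background-corrected by the authors' image software, and the authors' deposited matrix holds log2 values relative to the 75th percentile and centred on each probe's median, for 25443 probes, 9 of them Frizzled. Intensities were taken to log2 minus the array's 75th percentile with a floor of -6.13. Outlier spots were left out, replicate spots averaged, and probes kept if well above background on all 3 arrays of a condition. The probe with the highest mean stood for a gene. Between 58.3% and 66.5% of spots were well above background. limma 3.58.1 (R 4.3.3) fitted 1 mean per condition with a trended prior and Benjamini-Hochberg adjustment over 24648 genes, and was tested on simulated data. Python 3.11.15, numpy 2.4.6, pandas 2.3.3 and matplotlib 3.10.9 prepared tables and figures. Same-numbered replicates of different conditions were checked for pairing: 82 of 84 pairs had residual correlations over 0.1 (mean 0.384), so replicate number was also fitted as a block. Other pairs averaged -0.191, which largely follows from the first mean, because residuals cancel out over the 3 arrays of a condition. Other alternatives were no filter, a stricter filter, outlier spots kept, a fit of the conditions compared alone, normexp correction, another floor, quantile normalization, spike-in scaling, the mean of a gene's probes, the deposited values, the study's thresholds and leaving out each array. Named genes are all Frizzled members, genes among their 3 nearest by correlation, CTNNB1, LRP5, LRP6, RYK, RNF43, ZNRF3, AXIN2 and LEF1 and called genes of the lists. Members and lists were chosen with earlier results of these data known.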

Additional observations from a re-analysis of the deposited data

Results flagged for a closer look

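The Wnt3a response of RNF43 differed between β-catenin siRNA and control siRNA by a log2 value of -1.23 (limma interaction, adjusted p 0.0013, in the same direction on 3 of 3 slides), and was not called with spike-in scaling (-1.52). The Wnt3a response of LUM, a mesenchymal marker, differed between FZD8_CRD and NT by -1.42 (limma interaction, adjusted p 0.0466, 3 of 3 slides). For LUM that call held without FZD8_CRD 3, NT 3 or NT with Wnt3a 3 and was lost without any other single array (adjusted p 0.0655 to 0.213), for example at -1.22 without FZD8_CRD 1. The Wnt3a values of FZD7 had opposite signs in control siRNA and FZD8_CRD cells: its mean over the 3 slides was 0.15 and -0.25 on the log2 scale, with every slide of a background on the same side, and limma called neither (adjusted p 0.817 and 0.38). Without FZD8_CRD 3, limma called the FZD8_CRD value (-0.43, adjusted p 0.0383). In NT the FZD7 value was 0.25 (limma, adjusted p 0.353), higher on 3 of 3 slides. The FZD7 response differed between FZD8_CRD and NT by -0.50, not called (limma interaction, adjusted p 0.305). Without FZD8_CRD 3 that difference was called (-0.68, adjusted p 0.0323). The FZD7 difference between FZD8_CRD and control siRNA cells was not tested.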

How the results depend on the processing

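Counts of Frizzled genes called moved by over 1.5 times as follows, and the cause was not tested. With no filter on signal, Wnt3a called 1 in NT and 0 in FZD8_CRD. With a fit on only the conditions compared, which could not be run for the mean over 4 backgrounds since that uses all arrays, Wnt3a called 0 in NT, 3 in siCTRL and 0 in FZD8_CRD, siCTRL against NT called 2 (0 with Wnt3a), and siCTNNB1 against siCTRL 1 with Wnt3a. Among all genes that fit called 2 in NT, 1329 in siCTRL, 0 in FZD8_CRD, 3703 (1 with Wnt3a) and 2239 in the same order. Normexp correction gave 0 for Wnt3a in siCTRL, 0 in FZD8_CRD, 3 for siCTRL against NT and 1 for siCTNNB1 against siCTRL. Spike-in scaling gave 0 for Wnt3a in siCTRL, 0 in FZD8_CRD, 2 in the mean, 2 for siCTRL against NT (0 with Wnt3a) and 0 for siCTNNB1 against siCTRL (0 with Wnt3a). The study's thresholds gave 1 in the mean, 2 for siCTRL against NT, 0 for siCTNNB1 against siCTRL (2 with Wnt3a) and 3 for FZD8_CRD against NT. The replicate block gave 4 for siCTRL against NT with Wnt3a. All-gene counts moved too: with no filter 848 in NT and 1398 in FZD8_CRD, with normexp 416, 1704, 4825 and 2566, with spike-in scaling 53, 243, 1415, 1540 (242 with Wnt3a) and 182 (641 with Wnt3a), by the study's thresholds 938, 2684, 1395 (1593 with Wnt3a) and 5516, and with the block 3754, in the orders given. Smaller moves were also seen, among them 3 (no filter) and 5 (normexp) in the mean, 3 (no filter, normexp) and 5 (deposited values, quantile normalization) for siCTNNB1 against siCTRL with Wnt3a, and 4 (spike-in scaling), 5 (conditions fitted alone) and 7 (deposited values) for FZD8_CRD against NT. For siCTNNB1 against siCTRL fitted alone the count stayed at 2 with FZD1 lost and FZD8 gained.
With 1 array or 1 whole slide left out, counts ran from 0 to 5 for Wnt3a in NT, 0 to 3 in siCTRL, 0 to 3 in FZD8_CRD and 2 to 6 in the mean. They ran from 0 to 5 for siCTRL against NT (0 to 2 with Wnt3a), 0 to 2 for siCTNNB1 against siCTRL (0 to 5 with Wnt3a), 3 to 6 for FZD8_CRD against NT (1 to 3 with Wnt3a), and 0 to 3 for the FZD8_CRD difference in Wnt3a response.
Directions of called genes turned under spike-in scaling for FZD6 in siCTRL against NT (-0.032), RYK with Wnt3a in NT (-0.080) and in siCTRL against NT (-0.081), AXIN2 (-0.025) and ACTA2 (-0.080) with Wnt3a in NT, and DVL2 (-0.10), SP5 (-0.20), KRT19 (-0.028) and ACTA2 (-0.091) in FZD8_CRD against NT. FRZB turned to 0.0097 in the mean Wnt3a effect with normexp. Uncalled genes also changed sign while staying uncalled. Of the single-gene Frizzled results with no array left out, 1 reversed, 1417 kept their side of the threshold (some of them uncalled with a changed sign), 20 gained a call and 65 lost it. With an array or a slide left out, 3242 kept their side, 28 gained a call and 132 lost it. A background with 1 array left out has 2 arrays and borrows its spread from the other groups. FZD10 had no signal well above background, so its changes cannot be measured here.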
